A study of Mus musculus and Homo sapiens with 241 samples.

Results

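The mouse B-ALL cells of the study came from 2 independently transformed parental lines, #13 and #15, and the libraries of these cells grown alone were compared between the parental lines. The comparison took every library of B-ALL alone at timepoint 1 in the experiments EXP_9.5, EXP_9.6 and EXP_9.7: 18 wells of parental line #13 (lines A and B, 9 wells each) and 18 wells of parental line #15 (lines C and D, 9 wells each), 36 of the 241 samples of the series. Another 97 libraries of the same lines, grown for longer, with NK cells or in EXP_9.8, served as separate readings of the same difference. Both parental lines were wild-type bone marrow cells of C57BL/6 mice, aged 8 to 10 weeks, transduced with a retrovirus carrying BCR/ABLp185, and they were chosen by the study among its lines for their susceptibility to NK cells. Each parental line was then transduced with a library of DNA barcodes that also carries GFP, once to give A or C and once to give B or D. GFP+ cells of all wells were sorted before RNA was prepared, and the cultures without NK cells also received IL-2. Timepoint 1 was day 4 in EXP_9.5 and EXP_9.6 and day 6 in EXP_9.7. Each parental line is a single transformation, so the wells measure how reproducibly these lines differ and not how such lines vary in general.

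BCR/ABLp185 is a fusion kinase that drives acute lymphoblastic leukaemia, and in mouse bone marrow cultures it transforms cells that are held at the pro-B to pre-B cell stage. Such cells carry the surrogate light chain (Vpreb1, Igll1), the signalling chains Cd79a and Cd79b and the transcription factors Pax5 and Ebf1, and normally build the immunoglobulin μ chain (Ighm) before the light chain. Leukaemia lines made in the same way from the same tissue can still differ from each other in what they express.

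The 3′ RNA-seq libraries held 3369489 to 10083980 reads in genes for #13 (median 4249030) and 3581000 to 7769369 for #15 (median 4598639). Genes on X and Y were left out. Wells of the same line and experiment varied more in EXP_9.7 than in the others (median chi-square per degree of freedom of 94.4 in EXP_9.7, 8.95 in EXP_9.5 and 5.195 in EXP_9.6). This value was taken on counts not matched for depth. Libraries of EXP_9.7 held 5806958 to 10083980 reads and those of EXP_9.5 and EXP_9.6 held 3369489 to 4859476. The summed level of 16 NK cell markers was 1.87 to 10.68 CPM (counts scaled to a common library size) in #13 and 2.343 to 14.41 CPM in #15, and Ncr1, Cd3e, Cd4, Cd8a and Mpo were below the filter on low counts. The 6 tested erythroid and megakaryocyte markers summed to 73.64 to 256.3 CPM in #13 and 118.1 to 276.9 CPM in #15, nearly all of it Car2, Tfrc and Hbb-bt, while Klf1, Alas2 and Pf4 were below the filter. No NK cell marker or erythroid marker was called (16 and 6 tested). The 10 tested T cell markers summed to 32.98 to 92.63 CPM in #13 and 11.77 to 35.21 CPM in #15, most of it Lck, and the 10 tested myeloid markers to 13.11 to 26.33 CPM and 6.229 to 15.7 CPM, of which Lyz2 had means of 11.73 and 4.727 CPM and Mrc1 of 5.645 and 2.83 CPM. Lck, Cd28 and Lyz2 were the called genes of these lists. In sorted bulk cells a smaller number of cells with a transcript and less of it per cell cannot be told apart.

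A gene was called when A and B each differed from C and D, that is, when the largest of the 4 p-values (A against C, A against D, B against C, B against D) had an adjusted p of at most 0.05 with edgeR and all 4 log2 differences had 1 sign and a size of at least 0.58. Of 17476 genes tested, 144 were higher in A and B (0.824% of genes) and 226 were higher in C and D (1.29%). The differences were often large. Of the 144 genes, 71 differed more than 4-fold and 32 more than 16-fold, and of the 226 genes these numbers were 99 and 44. The median log2 difference (#13 minus #15) was 1.99 in the first group and −1.65 in the second, beside −0.00635 over all genes tested. At these shares a gene list of the sizes given below holds about 1 called gene or none, so the counts of 0 to 2 called genes in a list describe its members and do not set the list apart.

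The sister lines of one parental line gave few calls of their own. A and B differed in 63 genes (0.36% of genes tested) and C and D in 35 (0.2%), while the 4 pairs across parental lines gave 913 to 1555 genes (5.22% for B against D to 8.9% for A against D). The levels of 44 of the 144 genes and 67 of the 226 did not overlap between the 18 wells of #13 and the 18 wells of #15, as against 119 (0.681%) of all genes tested. The genes were chosen for a difference in these same wells, so a share above that of all genes follows from the choice. The rule asked for both sisters. The mean of A and B against the mean of C and D alone gave 633 and 992 genes. Just inside the fold limit lay Inppl1, Dis3 and Mettl6 (smallest difference over the 4 pairs of 0.5842, 0.5841 and 0.5839), and just outside it Cnn2, Fkbp5 and Mapk1ip1l (0.5792, 0.578 and 0.57). The counts depended on the wells used. Without EXP_9.5 they were 77 and 113 and without EXP_9.6 83 and 141, while without EXP_9.7 they rose to 199 and 262. Without the wells numbered 2 they were 90 and 135 and without those numbered 3 they were 86 and 138. EXP_9.5 alone gave 113 and 174, EXP_9.6 alone 134 and 149 and EXP_9.7 alone 23 and 17. The cause was not tested. All 57 called genes named here by a fixed rule (smallest p, largest difference, gene lists) kept their direction in every experiment. They were called in these same wells, which by itself favours 1 direction throughout. The calls of 17 of them, given below, were lost without an experiment or a replicate number.

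Genes that define precursor B cells were expressed in both parental lines. Of 21 genes of the pre-B receptor and of V(D)J recombination, none was called (median log2 difference 0.023). Igll1, the λ5 part of the surrogate light chain, lay at 456 to 789 CPM in #13 (median 680) and 409 to 820 CPM in #15 (median 700.2), and the wells overlapped throughout. Vpreb1, its partner, had medians of 1808 CPM and 2124 CPM. The log2 difference was 0.25 ± 0.15 for Cd79a, 0.07 ± 0.06 for Cd79b, −0.14 ± 0.07 for Pax5, 0.02 ± 0.06 for Ebf1 and −0.04 ± 0.08 for Ptprc, the gene of B220 and CD45 (± SE, 18 wells against 18, adjusted p = 1.0 for each with edgeR). Spn, the gene of CD43, had 34.7 to 77.4 CPM in #13 and 23.9 to 68.1 CPM in #15. The markers by which the study typed the lines were thus present in both at levels that did not pass the test for a difference.

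Some genes of this stage came near the limits. Ighm had 674 to 1299 CPM in #13 (median 765) and 372 to 1096 CPM in #15 (median 495). Its log2 difference of 0.66 ± 0.08 passed the p-value (adjusted p = 0.00455 with edgeR) but not the fold limit in B against C (0.49), and it was not called. Dntt, the terminal transferase that adds bases at V(D)J joins, had a median of 3.91 CPM in #13 and 0.43 CPM in #15, a log2 difference of 2.71 ± 0.41 (adjusted p = 0.0538 with edgeR). Rag1 and Rag2, the recombinase genes, had log2 differences of −1.32 ± 0.21 and −1.11 ± 0.21 (adjusted p = 0.129 and 0.134 with edgeR). These 3 genes missed the call, and they passed it in some alternatives, for example without EXP_9.7 (2.33, −1.55 and −1.38). Of the antigen receptor genes, the constant genes Ighm, Trgc1 and Trgc2 had at least 50 CPM, and none was called. Trgv2, a T cell receptor γ variable gene, was called (mean 1.71 and 3.09 CPM in A and B, 12.6 and 16.4 CPM in C and D, log2 difference −2.67 ± 0.26, adjusted p = 0.000111 with edgeR). It was chosen after its values were seen.

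The genes that most sharply marked #13 included a single on-off gene. Psma8, which encodes a proteasome subunit known from the testis, had 9.37 to 24.7 CPM (median 16) in the 18 wells of #13 and 0 to 0.472 CPM (median 0) in the 18 wells of #15. It was the only gene above 5 CPM in every well of one parental line and under 0.5 CPM in every well of the other. Its log2 difference was 6.73 ± 0.25 (adjusted p = 6.85e-18 with edgeR), and its 4 pairs ranged from 6.53 to 6.93. Almost all of its reads in #13 (99.3%) were assigned to a transcript annotated for nonsense-mediated decay, so that the level is that of the locus and not of a known protein-coding form.

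Cd38, a surface enzyme that breaks down NAD+ and is carried by many B-lineage cells, had 13.3 to 26.6 CPM (median 17.2) in #13 and 0.255 to 2.33 CPM (median 1.23) in #15. Its wells were far apart, and the log2 difference was 3.77 ± 0.17, a 13.6-fold difference (adjusted p = 1.6e-15 with edgeR). Of 43 tested surface markers of B cell stages it was the only one higher in A and B (median over the list 0.16), and Cd86, a co-stimulatory ligand, was the only one higher in C and D (median 0 CPM in #13 and 1.03 CPM in #15, adjusted p = 0.00384 with edgeR). The call of Cd86 rested on few reads and was lost without EXP_9.5, EXP_9.6, EXP_9.7 or the wells numbered 2 or 3 (log2 difference −4.90 to −3.01).

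**Figure D1:**
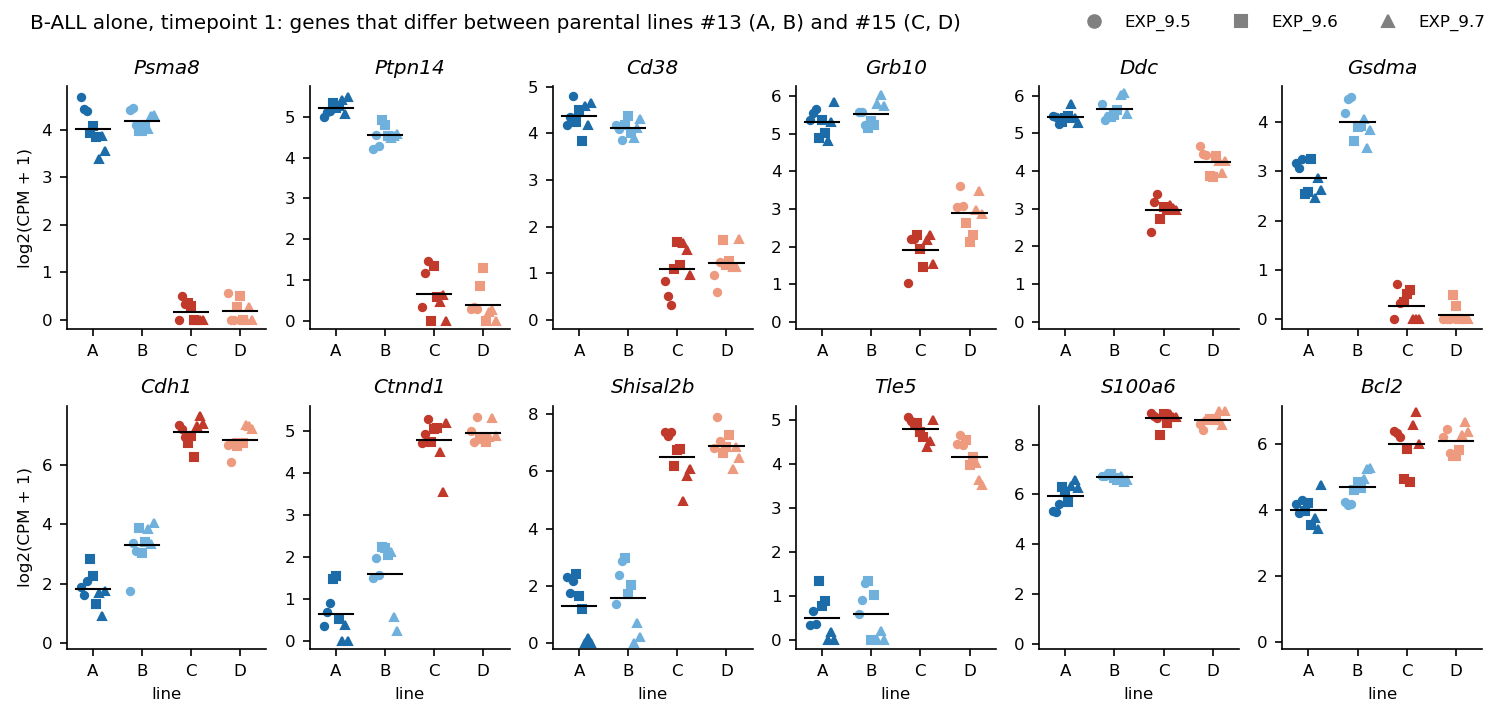
Level of 12 genes, as log2(CPM + 1), in each well of B-ALL alone at timepoint 1. Columns are lines A and B (parental line #13, blue) and C and D (parental line #15, red), the marker shape gives the experiment, and the black line is the mean of the 9 wells. The upper row shows genes higher in A and B and the lower row genes higher in C and D. The wells of the parental lines overlap only in the panel of Bcl2.

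Grb10 and Ddc, neighbours on chromosome 11, were both higher in A and B. Grb10 (GRCm38 chr11:11930508-12038683, minus strand) encodes an adaptor that restrains insulin receptor signalling and is imprinted, and it had 27.1 to 63.9 CPM (median 40.2) in #13 and 1.05 to 11.2 CPM (median 3.94) in #15. The log2 difference was 3.26 ± 0.13 (adjusted p = 5.67e-15 with edgeR). Ddc (chr11:11814101-11898144, minus strand), the decarboxylase that makes dopamine and serotonin, had 37.2 to 66.3 CPM (median 43.1) and 4.21 to 24.3 CPM (median 11.4), a log2 difference of 2.02 ± 0.09 (adjusted p = 1.34e-09 with edgeR). Neither gene overlapped between the parental lines. Within #15 both were lower in C than in D, with means of 2.9 and 6.86 CPM for Grb10 (adjusted p = 0.000909 with edgeR) and 6.99 and 18.2 CPM for Ddc (adjusted p = 2.51e-08 with edgeR). Of 26 imprinted genes tested, these were the only ones called, and the median over the 26 was −0.061.

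Ptpn14, a tyrosine phosphatase, had 17.4 to 43.5 CPM (median 30) in #13 and 0 to 1.78 CPM (median 0.262) in #15, with a log2 difference of 5.76 ± 0.22 (adjusted p = 1.48e-16 with edgeR). Gsdma, a member of the gasdermin family of pore-forming proteins, had 4.5 to 21.7 CPM (median 9.34) and 0 to 0.636 CPM (median 0), a log2 difference of 6.04 ± 0.29 (adjusted p = 9.08e-13 with edgeR). Wells of #13 were all above those of #15 for both genes. Further genes with this pattern were Slfn9 (median 14 and 0.221 CPM), Tm7sf3 (33.8 and 2.05 CPM), Gpr65, a proton-sensing receptor (15.8 and 0.561 CPM), and the integrin chain Itga9 (6.73 and 0.596 CPM), whose log2 differences were 5.55, 4.00, 4.32 and 3.51. Of 35 integrins, selectins and chemokine receptors, Itga9 and Itga1 were higher in A and B and Ccr7, described below, was higher in C and D (median −0.078). Itga1 was at 0 in all wells of #15 and at a median of 0.786 CPM in #13 (adjusted p = 0.0104 with edgeR), and its call was lost without EXP_9.5, EXP_9.6 or any replicate number (4.75 to 5.25). Aldh1a7 had 14 CPM against 0.234 CPM but is nearly identical to another aldehyde dehydrogenase gene, and how its reads were divided between the copies is uncertain. Efhd1, a mitochondrial calcium-binding protein, differed less, with 39.3 to 75.4 CPM in #13 and 16.3 to 27.7 CPM in #15, but as cleanly (log2 difference 1.46 ± 0.08, adjusted p = 5.39e-13 with edgeR).

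Cdh1 and Ctnnd1 were higher in C and D. Cdh1, which encodes E-cadherin, the adhesion protein of epithelia that is also bound by the inhibitory NK cell receptor KLRG1, had 0.871 to 15.6 CPM (median 4.97) in #13 and 67.2 to 199 CPM (median 124) in #15. Its log2 difference was −4.64 ± 0.16 (adjusted p = 9.33e-17 with edgeR), and the 4 pairs ran from −5.73 to −3.56. The sisters A and B also differed in Cdh1, with means of 2.76 and 9.76 CPM (adjusted p = 2.9e-05 with edgeR). Ctnnd1 encodes p120 catenin, which binds the cytoplasmic tail of E-cadherin and holds it at the membrane. It had 0 to 3.7 CPM (median 1.33) in #13 and 10.8 to 39.5 CPM (median 28.4) in #15, a log2 difference of −4.64 ± 0.24 (adjusted p = 3.28e-12 with edgeR). Actn1, the actin cross-linker α-actinin, was also higher in C and D (medians 36 and 106 CPM, log2 difference −1.63 ± 0.08). In each of these genes every well of #15 was above every well of #13.

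Other genes with a large difference in this direction had varied roles. Shisal2b, of unknown function, had 0 to 6.97 CPM (median 2.23) in #13 and 30.5 to 237 CPM (median 110) in #15, with a log2 difference of −5.78 ± 0.24 (adjusted p = 5.72e-16 with edgeR). Tle5, a short member of the Groucho family of co-repressors, had 0 to 1.53 CPM (median 0.407) and 10.6 to 32.7 CPM (median 22.3), a log2 difference of −5.40 ± 0.24 (adjusted p = 9.01e-15 with edgeR). Dffb, the nuclease that cuts DNA in apoptosis, had 8.26 to 19.9 CPM (median 12.1) and 48.4 to 118 CPM (median 78.3), a log2 difference of −2.62 ± 0.10 (adjusted p = 1.48e-16 with edgeR). No well of #13 reached a well of #15 in any of these genes. Rangrf differed as much (medians 1.99 and 41.2 CPM), and 89.7% of its reads in #13 and 88.8% in #15 lay in a transcript that is not annotated as coding. Bank1, a B cell scaffold of receptor signalling, had medians of 32.5 and 95.7 CPM (log2 difference −1.55 ± 0.09, adjusted p = 8.69e-13 with edgeR).

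Decr1 and Eci1, both of which serve the mitochondrial β-oxidation of unsaturated fatty acids, had wells near or at 0 in #13. Decr1, the dienoyl-CoA reductase, had 0 to 1.53 CPM (median 0.479) in #13 and 3.65 to 18.1 CPM (median 12.9) in #15, a log2 difference of −4.77 ± 0.28 (adjusted p = 4.14e-10 with edgeR). Eci1, the enoyl-CoA isomerase, which was picked after its values were seen, had 0 to 1.46 CPM (median 0.237) and 4.11 to 14.1 CPM (median 9.14), a log2 difference of −4.85 ± 0.30. The genes lie on different chromosomes, and their wells did not overlap.

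Among genes of small calcium-binding S100 proteins, called genes went in both directions. S100a6 had 37.9 to 117 CPM (median 92) in #13 and 337 to 650.4 CPM (median 528) in #15, a log2 difference of −2.70 ± 0.09 (adjusted p = 2.83e-17 with edgeR), and its wells did not overlap. S100a4 was low in both, with a median of 0 CPM in #13 and 2.96 CPM in #15 (log2 difference −3.99, adjusted p = 4.55e-05 with edgeR). S100a11 went the other way, with 4.82 to 47.5 CPM (median 10.2) in #13 and 0 to 1.77 CPM (median 0.238) in #15 (log2 difference 5.13 ± 0.32, adjusted p = 4.62e-09 with edgeR). The same list of phagocyte and myeloid-shared genes held further called genes in both directions: 4 of 31 tested were higher in A and B (Gpr65, S100a11, Anxa1, Lyz2) and 5 were higher in C and D (S100a6, Lat2, Lgals3, S100a4, Tyrobp), with a median of −0.085. Lgals3, galectin-3, had 0 to 0.537 CPM (median 0) in #13 and 1.62 to 12 CPM (median 4.84) in #15. Lyz2, lysozyme, had medians of 10.8 and 5.24 CPM (log2 difference 1.34 ± 0.18), and its call was lost without EXP_9.5, EXP_9.6 or any replicate number (1.26 to 1.61). The call of Anxa1 (1.42 ± 0.16) was lost without EXP_9.6 or the wells numbered 3 (1.28 and 1.32).

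Lists of survival, tumour suppression and growth held the following calls. Bcl2, the anti-apoptotic founder of its family, was the only called gene of 40 tested in the BCL2 and death receptor list (median −0.013). It had 9.87 to 38.1 CPM (median 18) in #13 and 27.9 to 126 CPM (median 73.2) in #15, a log2 difference of −1.75 ± 0.14 (adjusted p = 6.22e-07 with edgeR), with an overlap at the edge of the ranges. Of 44 genes of the p53 pathway, CDK inhibitors and proto-oncogenes, Btg2 and Zmat3 were higher in C and D (−0.87 ± 0.13 and −2.25 ± 0.39), with a median of −0.062 over the list. Both calls were lost without EXP_9.5, EXP_9.6 or any replicate number (−0.93 to −0.74 and −2.54 to −1.79). The Cdkn2a locus, often lost in such lines, was read strongly in both (medians 767 and 996 CPM, log2 difference −0.44 ± 0.08, adjusted p = 0.183 with edgeR), and Trp53, Myc, Abl1 and Bcr had differences of 0.09, −0.06, 0.20 and 0.17 (adjusted p = 1.0 each with edgeR). None of 53 genes of cytokine receptors and JAK-STAT signalling, 48 cell cycle genes, 37 epigenetic regulators, 21 glycolysis genes, 13 mitochondrial transcripts or 13 serpins and granzyme inhibitors was called, with medians of −0.033, 0.181, 0.032, −0.145, −0.02 and 0.694. In the order given, 6, 7, 2, 4, 1 and 1 of these genes had an unadjusted largest p of at most 0.05 with edgeR, and DESeq2 called 0 in each list. Of the other lists without a call, the unadjusted count was 4 for the 21 genes of the pre-B receptor and recombination, of which DESeq2 called 1, and 1 each for the 15 Ly6 and PLAAT genes, the 16 NK cell markers and the 6 erythroid markers, of which DESeq2 called 0.

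Of 51 tested transcription factors of the lineage, 2 were called (1.96% in each direction). Lmo2, an adaptor of early blood cell transcription factors, was higher in A and B (medians 28.3 and 15.6 CPM, log2 difference 0.96 ± 0.11, adjusted p = 0.00772 with edgeR) and Cebpb was higher in C and D at a low level (0.264 and 2.43 CPM). The median over the list was 0.006. The call of Lmo2 was lost without EXP_9.5, EXP_9.6 or the wells numbered 2 or 3 (0.82 to 1.02), and that of Cebpb without any experiment or replicate number (−2.94 to −1.94). Arid3a, a B cell transcription factor counted with the Hox and stem-cell genes, was the only called gene of 23 tested there (median 0.508), with medians of 34.1 and 61.6 CPM (−0.87 ± 0.10, adjusted p = 0.00102 with edgeR). Its call was lost without EXP_9.5, EXP_9.6 or the wells numbered 2 (−0.93 to −0.75). Lck, a SRC-family kinase best known in T cells and also active in precursor B cells, had 30 to 89.3 CPM (median 38.9) in #13 and 10.2 to 34.6 CPM (median 15.3) in #15. Its log2 difference was 1.38 ± 0.10 (adjusted p = 5.58e-06 with edgeR). Of the defining T cell genes, Cd3e, Cd4 and Cd8a were below the filter. Others passed it at low levels, for example Cd3d (means 0.358 and 0.569 CPM in #13 and #15), Zap70 (0.839 and 0.393 CPM) and Thy1 (0.216 and 0.0332 CPM). Cd28 had medians of 2 and 0.283 CPM, and its call was lost without any experiment or replicate number (from 2.04 without EXP_9.5).

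Of 28 tested ligands of NK cell receptors and adhesion genes, Cdh1 was higher in C and D and Nectin3 was higher in A and B (3.57% in each direction, median 0.033). Nectin3, a nectin bound by the receptor TIGIT, was low (0.73 to 7.95 CPM, median 2.72, in #13 and 0 to 0.172 CPM, median 0, in #15, adjusted p = 9.4e-09 with edgeR). Ulbp1, a ligand of NKG2D, had a log2 difference of 0.58 (adjusted p = 0.213 with edgeR), and Cd48, the ligand of 2B4, of 0.49 (adjusted p = 0.28 with edgeR). Neither was called. Of 25 genes of MHC class I and peptide loading, H2-Q7 and H2-Q6 were higher in A and B (median 0.148), while B2m, H2-K1 and H2-D1 had differences of 0.13 ± 0.07, 0.08 ± 0.07 and 0.20 ± 0.08 (adjusted p = 1.0 each with edgeR). H2-Q7 had 126 to 295 CPM (median 231) in #13 and 69.2 to 220.5 CPM (median 111) in #15 (log2 difference 0.87 ± 0.10, adjusted p = 0.00689 with edgeR), and H2-Q6 had 34.4 to 111 CPM (median 45) and 11.8 to 63.6 CPM (median 26.3) (0.95 ± 0.11, adjusted p = 0.00144 with edgeR). Their wells overlapped. These neighbours are close copies of each other, so the division of reads between them is uncertain, and both calls were lost without EXP_9.5, EXP_9.6 or the wells numbered 2 or 3 (0.74 to 0.89 and 0.82 to 1.04). H2-Q7 was also lost with DESeq2 and with RLE size factors, but not with upper-quartile factors, its smallest pair, B against C, being at 0.5846.

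Cd74, the invariant chain that guides MHC class II, was the only called gene of 11 in the class II list (median 0.089). It had 0.623 to 28.2 CPM (median 13.6) in #13 and 22.5 to 129 CPM (median 60.3) in #15, a log2 difference of −2.21 ± 0.24 (adjusted p = 5.09e-05 with edgeR). Over the 5 genes of this list with at least 10 CPM the median was −0.322. H2-Ab1, a class II chain that was well expressed, had means of 35.8, 36.6, 29.8 and 32.7 CPM in A, B, C and D. It was not called, and it lies outside the fixed rule for naming genes. Of 69 interferon-response genes, Ifi47 was higher in A and B (0.79 ± 0.10) and Oas1a was higher in C and D at a low level (median 0 and 1.29 CPM), with a median of −0.032. The call of Ifi47 was lost without EXP_9.5, EXP_9.7 or the wells numbered 1 or 2 (0.62 to 0.86), and that of Oas1a without EXP_9.6, EXP_9.7 or the wells numbered 3 (−3.75 to −3.29). None of 15 genes of the Ly6 and PLAAT families was called (median 0.168). Ly6a, the gene of Sca-1, had 58.2 to 115 CPM (median 80.9) in #13 and 37.5 to 105 CPM (median 51.6) in #15 (log2 difference 0.50 ± 0.10, adjusted p = 1.0 with edgeR). Ccr7, which guides lymphocytes to lymph nodes, was higher in C and D (0.156 to 3.14 CPM against 6.48 to 15.2 CPM, log2 difference −2.40 ± 0.19, adjusted p = 3.12e-08 with edgeR).

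Metallothioneins, small proteins that bind zinc and copper, were higher in C and D. Mt1 had 121 to 369 CPM (median 155) in #13 and 194 to 740.2 CPM (median 363) in #15, a log2 difference of −0.94 ± 0.08, or 1.92-fold (adjusted p = 1.76e-06 with edgeR). Mt2 had 37.4 to 401 CPM (median 74.7) and 64.4 to 844 CPM (median 180), a log2 difference of −0.97 ± 0.12, or 1.96-fold (adjusted p = 0.00187 with edgeR), and its call was lost without EXP_9.5 or the wells numbered 1 (−0.81 and −0.75). The ranges of the wells overlapped, and the difference had the same sign in EXP_9.5, EXP_9.6 and EXP_9.7 (−1.27, −0.74 and −0.81 for Mt1, −1.27, −0.48 and −1.11 for Mt2, as log2 ratios of means). The 2 genes are neighbours on chromosome 8 and are known to answer to metal through MTF1, which binds metal response elements. Their promoter windows in RefSeq (GRCm38.p6), 250 bases before to 50 bases after the transcription start, were searched on both strands for the element core TGCACNC or TGCGCNC. The Mt1 window held 3 matches and the Mt2 window 4, while 1.97% of 32851 promoter windows of the same length held at least 3 and 0.517% at least 4. A match is a string of letters and was not shown here to be a bound site. In the list of 23 hypoxia and metallothionein genes, Ero1l, an oxidase of protein folding, was also higher in C and D (−0.91 ± 0.11) and Egln3, a prolyl hydroxylase that marks HIF for decay, was higher in A and B (1.88 ± 0.25), with a median of −0.296. The call of Ero1l was lost without EXP_9.5, EXP_9.7 or the wells numbered 2 (−0.91 to −0.68), and that of Egln3 without EXP_9.6 or the wells numbered 1 or 2 (1.42 to 1.94).

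Genes of 1 chromosome stood apart from those of the others. Over the 299 genes of chromosome 14 with at least 10 CPM, the median log2 difference was −0.48 (quartiles −0.609 and −0.32), which corresponds to 1.39-fold higher levels in C and D, and 93.3% of these genes lay below 0. The medians of the 18 other autosomes ran from −0.005 to 0.039, with 41.7% to 50.7% of genes below 0. The pairs gave −0.464 (A against C), −0.496 (A against D), −0.437 (B against C) and −0.482 (B against D) for chromosome 14, and the sisters −0.031 (A against B) and −0.047 (C against D). Within EXP_9.5, EXP_9.6 and EXP_9.7 alone the median was −0.479, −0.436 and −0.486.

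**Figure D2:**
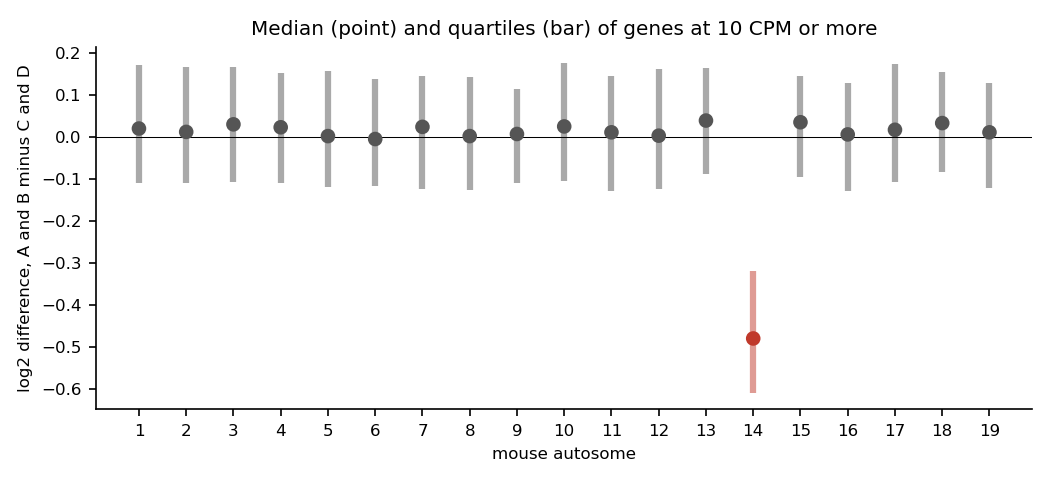
Median (point) and quartiles (bar) of the log2 difference, A and B minus C and D, over the genes with at least 10 CPM on each mouse autosome. Chromosome 14 (red) has a median of −0.48, and the medians of the other autosomes lie between −0.005 and 0.039.

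The difference ran the length of the chromosome. In 5 consecutive blocks of its genes the medians were −0.481, −0.479, −0.447, −0.485 and −0.503, and 90.0% to 96.7% of the genes in each were below 0. Every well showed it as well. The median deviation of chromosome 14 genes from their mean over libraries was −0.341 to −0.183 (median −0.219) in A, −0.26 to −0.166 (median −0.215) in B, 0.11 to 0.285 (median 0.204) in C and 0.194 to 0.308 (median 0.271) in D. The 18 wells of #13 were all below the 18 wells of #15, and chromosome 14 was the only autosome of which this held. For the other autosomes the wells lay between −0.224 and 0.177. The number of copies of the chromosome in each line was not measured in these libraries.

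**Figure D3:**
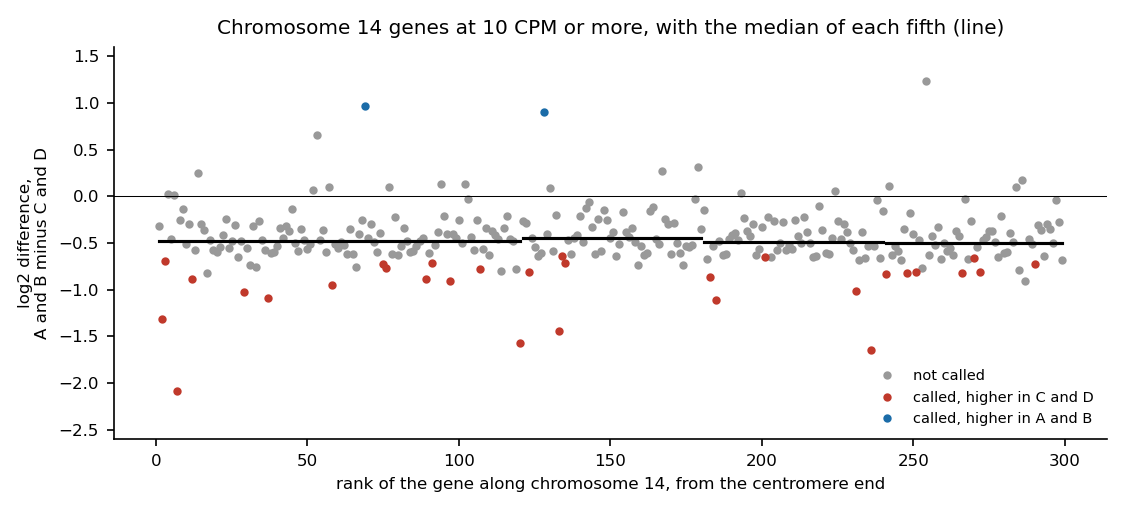
Log2 difference, A and B minus C and D, of the genes of chromosome 14 with at least 10 CPM, by their rank along the chromosome. Red and blue points are called genes, grey points are not called, and black lines are the medians of 5 consecutive blocks, which lie between −0.503 and −0.447.

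Chromosome 14 also held many of the called genes: 34 of the 226 genes higher in C and D (15.0%) but 3.78% of the genes tested. The part of the chromosome-wide difference in each call was not tested. Of its genes tested, 5.14% were higher in C and D, beside 0.631% to 1.77% on the other autosomes. Most of the 34 differed modestly, with a median of −0.872 and 13 above 2-fold. Tkt, the transketolase of the pentose phosphate pathway, which was picked after its values were seen, had a mean of 1022 CPM in #15 and a log2 difference of −0.95. Others were Ghitm, Supt16, Zdhhc20 and Zc3h13. Ero1l and Lgals3 also lie there. In the other direction, 3 genes of the chromosome were higher in A and B (Kcnk5, Nt5dc2 and Pnp2, the last with a near-identical copy beside it). These were 0.454% of its genes tested, within the 0.368% to 1.4% of the other autosomes. Off chromosome 14 the called genes numbered 192 and 141, so that most of the called genes lay on the other autosomes. Supt16 overlaps the neighbouring called gene Rpgrip1, and their reads are uncertain where the models meet.

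A few other neighbours were called together. On top of Grb10 with Ddc, Mt1 with Mt2 and H2-Q6 with H2-Q7, the adjacent pairs of well-expressed genes that differed in the same direction were Ltb with Lta (−1.67 and −0.94, genes of lymphotoxin), Fam114a2 with Mfap3 (−0.72 and −0.83) and Anxa1 with Aldh1a7 (1.42 and 5.49) outside chromosome 14. Neighbours also differed in opposite directions. Ackr2, a chemokine scavenger receptor, was higher in C and D (−4.20 ± 0.25), the adjacent non-coding gene 1700048O20Rik was higher in A and B (4.47 ± 0.20), and Gask1a beyond it was higher in C and D (−2.07). Slfn9 and Slfn2, of the Schlafen family of growth regulators, had differences of 5.55 and −1.34, and Dffb and its neighbour A430005L14Rik −2.62 and 0.94. These pairs were taken from the list of called neighbours and not from the rule for naming genes.

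The same genes were then read in libraries that the comparison had not used. In EXP_9.8, where line A and line D were grown alone to days 0, 4 and 14 (9 wells each), 132 of the 144 genes were called in the same direction (91.7% of the 144 and 22.6% of the 584 genes called, which were 4.02% of genes tested) and 203 of the 226 (89.8% and 25.5% of 795, background 5.47%). No gene was called in the opposite direction. All 143 tested genes of the first group and 225 of 226 of the second had the same sign. Psma8 had medians of 10.1, 10.3 and 17.8 CPM in line A at days 0, 4 and 14 and 0, 0 and 0.107 CPM in line D. Cdh1 had 6.63, 13 and 6.43 CPM against 205, 241 and 142 CPM. Both genes thus kept wide gaps at each day. Of the 2 called genes of the factor list, Lmo2 had the weaker repeat and was not called there (0.36, adjusted p = 0.15 with edgeR).

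B-ALL alone at timepoint 2 had 1 well per line in each of EXP_9.6 and EXP_9.7 (8 libraries). There 46 of the 144 genes and 64 of the 226 were called (31.9% and 28.3%; background 0.375% and 0.505%), and they made up 88.5% and 91.4% of the calls. The sign was the same in 142 of 143 and 220 of 221 tested genes, with median log2 differences of 1.97 and −1.51. With WT NK cells at timepoint 1 (36 libraries), 132 and 198 of the genes were called in the same direction (91.7% and 87.6%; background 3.93% and 6.18%). With NK cells at timepoint 2 (35 libraries), 130 and 191 were (90.3% and 84.5%; background 4.53% and 5.42%), and 1 gene, Lyz2, was called in the opposite direction. Lyz2 there had 3.88 to 17.8 CPM (median 10.4) in #13 and 1.96 to 107 CPM (median 21.3) in #15. The median difference of chromosome 14 was −0.547 in EXP_9.8, −0.514 alone at timepoint 2, and −0.476 and −0.497 with NK cells at timepoints 1 and 2, with all other autosomes between −0.045 and 0.072.

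**Figure D4:**
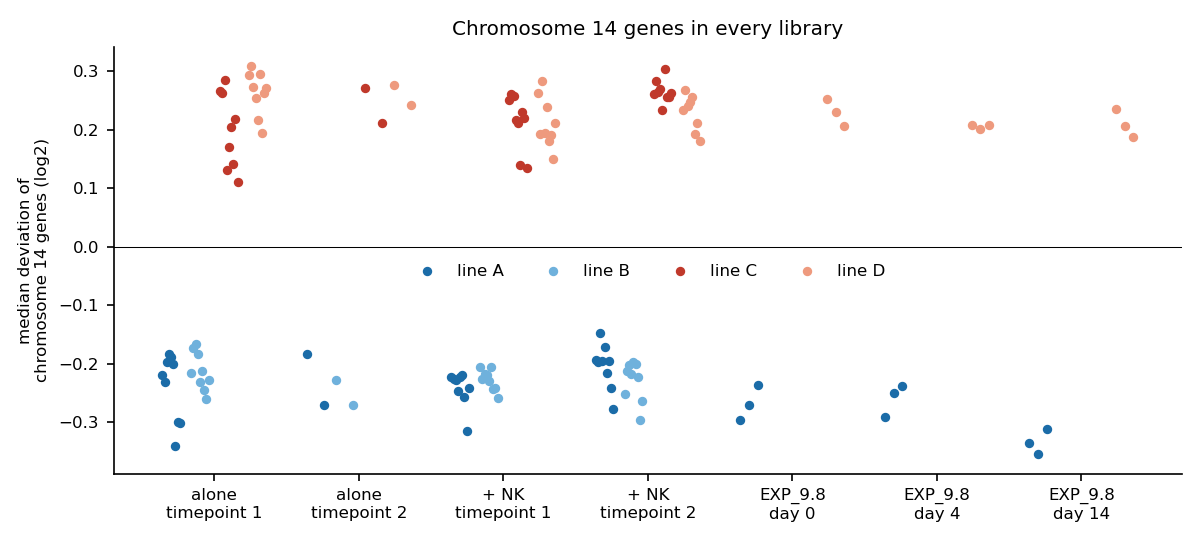
Median deviation (log2) of chromosome 14 genes from their mean over libraries, 1 point per library, for lines A and B (blue) and C and D (red) in each condition. Libraries of #13 lie below 0 and those of #15 above 0 in all 7 conditions.

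With NK cells the difference had another size for a minority of the genes. The test of the change itself, the parental difference with NK cells minus that alone at timepoint 1 in 72 libraries, called 284 of 19298 genes (1.47%) at an adjusted p of at most 0.05, among them 34 of the 370 genes. In 30 of the 34 the difference was smaller with NK cells, and 4 of these had the other sign. The 370 genes were chosen for a large difference in the same wells alone that form 1 arm of this test. That choice by itself favours a smaller difference in the other arm, so these counts support nothing about the effect of NK cells. It also favours smaller gaps in the single genes given here and below, and its part in each change was not tested. Lgals3 had 0.934 to 22.1 CPM (median 6.66) in #13 and 3.23 to 10.7 CPM (median 5.85) in #15 when NK cells were present, so that its gap closed (change 6.27 ± 0.50, adjusted p = 1.27e-15 with edgeR). S100a4 (change 4.14 ± 0.45, adjusted p = 1.99e-10 with edgeR) and Tyrobp (4.29 ± 0.70, adjusted p = 3.69e-05 with edgeR), a signalling adaptor of NK and myeloid cells that was picked after its values were seen, did likewise. Beside these values, the summed level of 31 NK cell markers with NK cells was 47.99 to 325.8 CPM (median 142.4) in #13 and 21.67 to 99.01 CPM (median 68.8) in #15. The part of transcripts carried over from NK cells in these 3 changes was not tested.

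The gaps of Cd74, H2-Q7 and H2-Q6, genes chosen in the same way, were also smaller with NK cells. Cd74 with NK cells had 36.7 to 369 CPM (median 122) in #13 and 40.9 to 212 CPM (median 85.4) in #15 (change 2.52 ± 0.28, adjusted p = 1.28e-09 with edgeR). H2-Q7 with NK cells had 284 to 455 CPM (median 373) in #13 and 221 to 516 CPM (median 396) in #15, and its log2 difference of 0.87 alone became 0.08 (change −0.77 ± 0.12, adjusted p = 1.81e-05 with edgeR). H2-Q6 went from 0.95 to 0.08 (adjusted p = 3.03e-05 with edgeR). The wells of the parental lines overlapped for all 3 genes in the presence of NK cells. S100a11 kept its direction with a smaller gap (5.13 alone, 2.48 with NK cells, adjusted p = 1.93e-06 with edgeR), as did S100a6 (−2.70 and −1.92, adjusted p = 5.4e-06 with edgeR). Cdh1, Psma8 and Cd38 were not among the 34, with differences of −4.33, 5.74 and 3.44 in the presence of NK cells.

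**Figure D5:**
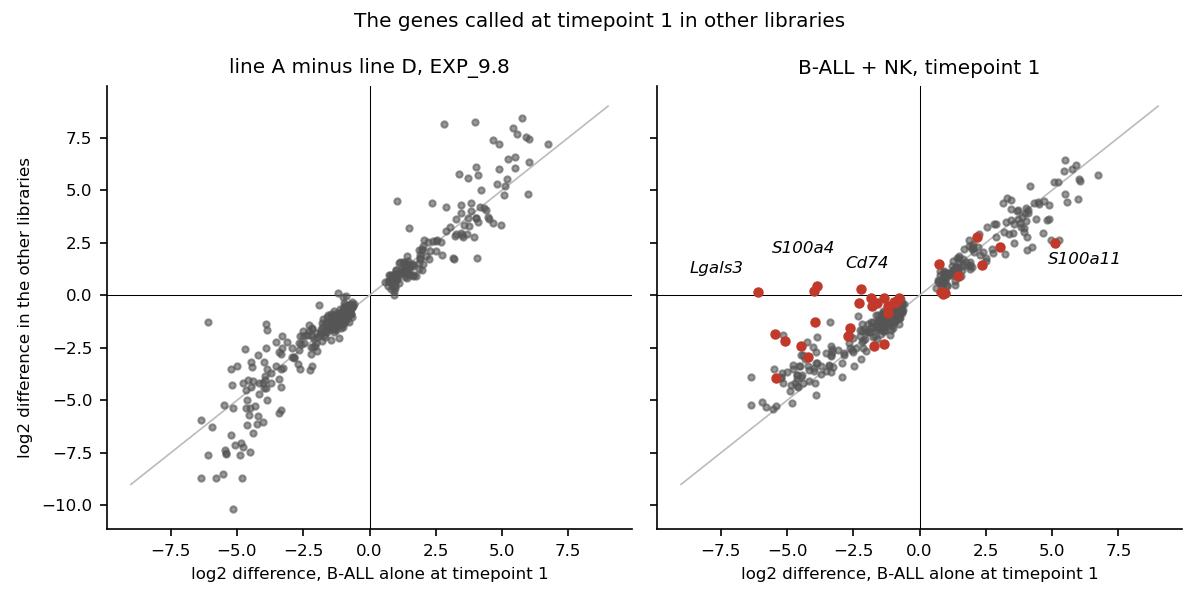
Log2 difference between the parental lines of the 370 called genes, alone at timepoint 1 (horizontal axis), against line A minus line D in EXP_9.8 (left) and against A and B minus C and D with NK cells at timepoint 1 (right). The grey line marks equal values. Red points in the right panel are the 34 genes whose difference changed with NK cells, among them Lgals3 at −6.09 alone and 0.15 with NK cells.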

How the data were processed

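RNA-seq libraries of mouse B-ALL lines A and B (parental line #13) and C and D (parental line #15) were analysed. The authors deposited estimated counts per transcript, which are not normalized, from a 3′ kit without molecular identifiers. Reads were mapped to GRCm38 (STAR 2.7.10a), duplicates were marked, and transcripts were quantified (Salmon 1.8.0). Here they were summed to genes of GENCODE M21 (136421 of 137979 transcripts matched, 98.9%, 50840 genes) and rounded, and genes on X and Y were left out. Genes that reached 1 count in 3 or more libraries were tested with edgeR 4.0.16 in R 4.3.3 (TMM factors, quasi-likelihood F test, two-sided, Benjamini-Hochberg adjustment), with 1 term per line and 1 per experiment. Levels are CPM scaled by TMM factors (36 libraries, or all 133 used where other conditions are shown), and differences are #13 minus #15. The mean of the 4 pairs is the size of a difference, and ± is its SE. The adjusted p of a parental difference at timepoint 1 alone is that of the largest of the 4 pair p-values.

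Named genes were those with the smallest p (12 in each direction) and the largest difference (8 in each direction) among genes of at least 10 CPM, on-off genes, up to 8 called genes per list, the genes that define a list, antigen receptor genes of at least 50 CPM, and the 4 chromosomes with the largest median difference. Members and lists were chosen with earlier results of these data known. Replicates are individually cultivated wells of the same lines, so p-values measure the spread between wells and not between parental lines. Between wells of a line and experiment, chi-square per degree of freedom was at least 2.57, so none was merged. The tests were checked on simulated counts. Alternatives were DESeq2 1.42.0, other size factors, filters and fold limits, left-out lines, experiments and replicate numbers, a replicate block, and summed wells. Further columns of the whole-series tables (72) match no sample label and were not used, and the other 108 samples are not analysed here. A few genes are not reported here, and they were left out of the comparison of single wells.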

Additional observations from a re-analysis of the deposited data

Results flagged for a closer look

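Single wells stood apart from the other 8 of their line in 30 of 352 tests of a named gene, or of the chromosome 14 median, in a line (8.5%), by the gap of the highest or lowest well to its nearest neighbour as a share of the range. For draws from 1 normal distribution chance gives about 1 in 20. The wells of a line span EXP_9.5, EXP_9.6 and EXP_9.7, and some flagged wells stood beside wells at 0. That rate therefore need not hold here, and whether 8.5% is above chance was not tested. Of the 30 wells, 23 came from EXP_9.7, 4 from EXP_9.6 and 3 from EXP_9.5. Wells of a line also varied more in EXP_9.7 (median chi-square per degree of freedom 94.4, against 5.195 and 8.95, not matched for depth). Values are log2(CPM + 1). Among genes higher in A and B, the lowest well was 2.02 for Slfn9 in line B, 2.54 for S100a11 in line B and 1.44 for Lyz2 in line D, and the highest well was 5.79 for Ddc in line A and 0.21 and 0.23 for Nectin3 in lines C and D.

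Among genes higher in C and D, the lowest well was 8.40 for S100a6, 4.20 for Luzp1, 3.56 for Ctnnd1 and 0.48 for Cebpb in line C, 4.38 for Rangrf and 3.80 for Btg2 in line D, 1.74 for Cdh1 in line B and 0.70 for Cd74 in line A. The highest well was 0.32 for Lgals3 in line B, and 1.02 for Ackr2, 5.51 for Lat2 and 0.33 for Cd86 in line A. Among genes that were not called, the highest well was 10.10 and 9.19 for Ighm in lines C and D, 9.95 for H2-K1 and 9.98 for Cd79a in line C. The lowest well was 0.22 for Dntt in line B, 1.12 for Rag1 in line C, 0.79 for Rag2 and 5.25 for Spn in line A, 8.47 and 8.51 for Trgc2 in lines A and C, and 5.48 for Myc and 5.15 for Bcr in line D.

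For 13 named genes the parental difference changed with NK cells at timepoint 1 (interaction, edgeR, adjusted p of at most 0.05). All 13 were called in the wells alone, which form 1 arm of this test, and that choice favours a smaller difference in the other arm. The change, with NK cells minus alone on the log2 scale, was 6.27 for Lgals3, 4.14 for S100a4, 2.68 for Oas1a, 2.52 for Cd74, 1.5 for Tle5, 1.26 for Ackr2, 0.80 for S100a6, 0.38 for Fam32a, −0.55 for Efhd1, −0.70 for Gm42047, −0.77 for H2-Q7, −0.85 for H2-Q6 and −2.62 for S100a11. Levels of NK cell markers in these libraries are given with the same comparison above, and their part was not tested.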

How the results depend on the processing

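Of 144 genes higher in A and B, the count was 77 without EXP_9.5, 83 without EXP_9.6, 23 in EXP_9.7 alone, 86 to 106 without 1 replicate number, 274, 261 and 249 without line B, C or D, 73 with the wells of each line summed (2 against 2), and 633 by the mean contrast alone. Of 226 genes higher in C and D, it was 147 at a log2 limit of 1, 113 without EXP_9.5, 141 without EXP_9.6, 149 in EXP_9.6 alone, 17 in EXP_9.7 alone, 135 to 153 without 1 replicate number, 412 and 402 without line A or B, 107 with lines summed, and 992 by the mean contrast. A left-out line asks for fewer pairs to pass. A left-out experiment has fewer wells, but without EXP_9.7 the counts rose to 199 and 262 (127 and 181 shared). DESeq2 gave 160 and 236 (140 and 218 shared), upper-quartile factors 142 and 227, no low-count filter 160 and 239, and filterByExpr 141 and 200. Deviations of same-numbered wells had a median correlation of 0.009 (54 values from −0.285 to 0.473), beside −0.003 for wells of different numbers (108 values from −0.654 to 0.456). The labels do not say whether the numbers pair wells, and with few wells per line and experiment these correlations cannot settle it. With a replicate block the counts were 144 and 211 (137 and 210 shared). Of the 370 genes, the numbers called in the same direction in other libraries were 330 with NK cells at timepoint 1 (321 to 328 without 1 replicate number, 329 with the block), 321 at timepoint 2 (308 to 315, 318 with the block), 335 in EXP_9.8 (314 to 323, 335 with the block), and 110 alone at timepoint 2, where DESeq2 gave 190 and no block could be fitted with 1 well per line. The interaction called 284 genes, or 188 with the replicate block (27 of the 370). The median of chromosome 14 ran from −0.499 to −0.436 over all alternatives. The block in the NK cell and EXP_9.8 libraries, and this median in the refitted models, were added after seeing the data. Of 57 called named genes, 24 kept their call in all 25 settings and none changed sign. These settings reuse the wells in which the genes were called, which favours an unchanged sign. Genes near 1 CPM rest on few reads, so their differences are imprecise. Other causes of these changes were not tested.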

Other observations

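Further called genes, chosen after their values were seen, had known roles in immune cells or in metabolism. Nt5e, the surface enzyme CD73 that makes adenosine, had medians of 3.19 CPM in #13 and 23.2 CPM in #15 (−2.84 ± 0.21, adjusted p = 6.89e-08 with edgeR), and Sirpa, the receptor of CD47, had 1.54 and 9.4 CPM (−2.92 ± 0.27, adjusted p = 0.000177 with edgeR). The wells of the parental lines did not overlap for either gene. Ltb and Lta, which encode lymphotoxin β and α, had medians in #13 and #15 of 11.6 and 37.2 CPM and of 286 and 547 CPM. In EXP_9.8 the differences of Nt5e, Sirpa, Ltb and Lta were −2.98, −2.53, −1.97 and −1.31.

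In the other direction, Aim2, a sensor of cytosolic DNA, had medians of 33.8 CPM in #13 and 6.07 CPM in #15 (2.40 ± 0.16, adjusted p = 2.3e-07 with edgeR). Chd3, a subunit of the NuRD chromatin remodeller, had 68.8 to 101 CPM (median 87.1) and 6.78 to 49.6 CPM (median 20.6), a log2 difference of 2.05 ± 0.13 (adjusted p = 2.29e-08 with edgeR), with no overlap. Atp1b3, a subunit of the sodium pump, had 414 to 717 CPM (median 629) and 175 to 319.5 CPM (median 254), a log2 difference of 1.25 ± 0.07 (adjusted p = 3.99e-11 with edgeR), also with no overlap. Fah, the last enzyme of tyrosine breakdown, had 0 to 0.293 CPM (median 0) in #13 and 1.26 to 9.39 CPM (median 3.86) in #15 (−5.95 ± 0.42, adjusted p = 6.71e-10 with edgeR).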
